A study of Homo sapiens with 12 samples.

Results

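The transcripts followed here come from 10 genes that break heme down, sense it or carry it. They were chosen by name, as the heme oxygenases HMOX1 and HMOX2, the biliverdin reductases BLVRA and BLVRB, the heme sensor BACH1, the heme transporters SLC48A1, FLVCR1 and FLVCR2, and the heme binders PGRMC1 and PGRMC2, out of the 20263 genes of the deposited RNA-seq table. The rule names genes and sets no threshold on a measured value, although results of these data were already known when it was written, and all 10 passed the filter on low counts that left 14287 genes for testing. The cells were A375, an established human melanoma line whose genotype is labelled WT in every sample. There were 4 groups of 3 libraries: Ctrl, without either agent; DdBIC, a dodecyl ester of a benzimidazole carboxylic acid that the sample labels write as DBIC; Hemin, an iron porphyrin chloride from which cells take up heme; and DdBIC+Hemin, given both. Dose and duration of the treatments of these libraries are not given in the sources used here. A single cell line was used, and the labels do not say whether the 3 libraries of a group came from separate cultures, so the p-values measure the spread between these libraries, which may be technical.

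Heme is an iron porphyrin that serves as the prosthetic group of cytochromes and many other enzymes, and free heme is toxic. Heme oxygenases open its ring and release iron, carbon monoxide and biliverdin, and biliverdin reductases turn biliverdin into bilirubin. BACH1 is a transcriptional repressor that pairs with small MAF proteins on antioxidant response elements, HMOX1 among its best known targets, and heme binding releases it from DNA and promotes its degradation. Transporters of the SLC48 and FLVCR families and heme-binding membrane proteins of the PGRMC family are proposed to move heme or to hand it on inside the cell.

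Total counts were between 37951275 and 44358912 per library, so 3 counts, the limit that a count of 0 allows, corresponded to 0.0676 to 0.0790 CPM, the count of a gene scaled by library size. Replicate libraries correlated with r = 0.985 to 0.988 across genes, and 0 pairs of libraries held identical counts. Of 10 markers of the melanocyte and melanoma lineage, 5 reached a mean of 1 TPM, a transcript level scaled by gene length and depth, in every group, and the summed level of the 10 was 588 to 604 TPM in Hemin, 585 to 632 in DdBIC+Hemin, 655 to 676 in Ctrl and 728 to 746 in DdBIC. Most of that sum was SOX10, with 514 to 531 TPM in Ctrl, 584 to 620 in DdBIC, 450 to 455 in Hemin and 452 to 516 in DdBIC+Hemin. S100B went the other way in DdBIC and in Hemin, with 20.3 to 24.6 TPM in Ctrl, 15.1 to 19.1 in DdBIC and 25.1 to 29.2 in Hemin. With both agents S100B was at 17.8 to 20.5 TPM. S100A1 was at 17.4 to 21.9 TPM in Ctrl, 17.6 to 21.6 in DdBIC, 11.8 to 16.4 in Hemin and 17.5 to 22.3 in DdBIC+Hemin. The ranges of MIA overlapped between Ctrl, DdBIC and Hemin. With both agents MIA was at 68.6 to 86.9 TPM, below the Hemin libraries at 88.5 to 95.1. MITF was at 7.92 to 11.5 TPM in Ctrl, 10.1 to 11.4 in DdBIC, 6.65 to 9.43 in Hemin and 6.30 to 8.26 in DdBIC+Hemin. In CPM every MITF library with hemin was below every library without it. TYR, the gene of tyrosinase, was at 0 in every library except Ctrl replicate 3 and DdBIC+Hemin replicate 3, with 2 counts each. Among markers of other cell types, the erythroid gene HBB and the leukocyte gene PTPRC were at 0 in every library. Other genes of these lists were measured, with CD68 of the macrophage list at 24.5 to 35.1 TPM and EPOR of the erythroid list at 4.53 to 9.12 TPM. KRT10 of the keratinocyte list was at 52.8 to 79.4 TPM and PDGFRB of the fibroblast list at 5.45 to 7.53 TPM. EPOR was lower in every library with hemin, at 4.53 to 5.69 TPM in Hemin and 5.35 to 6.56 in DdBIC+Hemin. Without hemin it was at 7.78 to 9.12 TPM in Ctrl and 6.80 to 8.87 in DdBIC. The part of the SOX10, S100B, S100A1, MIA, MITF and EPOR differences in the results below was not tested. In bulk RNA, fewer cells expressing a gene and less of its RNA per cell cannot be told apart.

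Levels of different genes were compared in TPM, which is scaled by gene length, and libraries were compared for 1 gene in CPM with TMM scaling. In Ctrl cells HMOX2, the constitutive heme oxygenase, had the highest level of the 10 genes, at 134 ± 9.05 TPM (SD, n = 3). PGRMC1 followed at 71.8 ± 2.20 TPM, BLVRA at 43.8 ± 0.757 and BACH1 at 27.4 ± 4.92 (SD, n = 3). BLVRB at 18.7 ± 2.43 TPM and SLC48A1 at 15.7 ± 2.17 overlapped in their libraries. PGRMC2 at 11.8 ± 0.639 TPM, FLVCR1 at 10.98 ± 0.377 and HMOX1 at 9.96 ± 0.727 stood close together without overlap between neighbours. FLVCR2, at 0.515 ± 0.192 TPM (SD, n = 3), was the lowest of the 10 in each of the 4 groups. With DdBIC, BACH1 moved to the third place, at 46.0 ± 4.32 TPM, above BLVRA at 37.6 ± 2.81 (SD, n = 3). With hemin, HMOX1 was second at 71.7 ± 2.15 TPM and overlapped with PGRMC1 at 69.6 ± 2.36, and with both agents it was first at 188 ± 23.2 TPM, above every library of HMOX2 at 140 ± 5.63 (SD, n = 3).

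HMOX1, the inducible heme oxygenase (ENSG00000100292, chromosome 22, 35380361 to 35394214, plus strand, GRCh38 as in all positions here), was the gene among the 10 that moved most. It rose with hemin, and it rose further when DdBIC was added to hemin, while DdBIC alone left it near the Ctrl level. The 3 Ctrl libraries had 7.99, 8.94 and 9.19 CPM, and the 3 DdBIC libraries had 8.73, 7.26 and 7.47 CPM. These ranges overlapped, and the log2 fold change was -0.16 (95% interval -0.38 to 0.07, edgeR adjusted p = 0.262). The 3 Hemin libraries had 62.2, 65.5 and 61.9 CPM, and the 3 DdBIC+Hemin libraries had 188, 146 and 172 CPM. Every library with hemin was above every library without it, and every library with both agents was above every library with hemin alone. Hemin against Ctrl gave a 7.26-fold rise (log2 fold change 2.86, SE 0.10, edgeR adjusted p = 1.18e-07), where SE is the standard error of the log2 fold change. DdBIC+Hemin against DdBIC gave a 21.6-fold rise (log2 fold change 4.43, SE 0.11, edgeR adjusted p = 9.79e-10). DdBIC+Hemin stood 2.67-fold above Hemin (log2 fold change 1.41, SE 0.093, edgeR adjusted p = 1.05e-05). The interaction, which is the log2 DdBIC effect in the presence of hemin minus that in its absence, was 1.57 for HMOX1 (SE 0.14, edgeR adjusted p = 2.23e-05). These comparisons share libraries, Ctrl or DdBIC or Hemin on both sides of several of them, and are not independent of each other. All of the HMOX1 calls were kept in each of the alternatives tried for them.

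HMOX2 (ENSG00000103415, chromosome 16, 4474690 to 4510347, plus strand) did not pass the threshold in any of the 6 comparisons. Its libraries had 77.1, 85.2 and 87.8 CPM in Ctrl, 80.1, 82.2 and 72.6 CPM with DdBIC, 95.6, 86.4 and 95.3 CPM with hemin, and 89.5, 85.1 and 89.1 CPM with both. The DdBIC+Hemin libraries were all above the DdBIC libraries, with a log2 fold change of 0.17 (95% interval 0.03 to 0.30, edgeR adjusted p = 0.0620). That p was 0.0391 with DESeq2, 0.0159 with upper-quartile normalization, 0.0477 when only the compared groups were fitted and 0.0431 without Ctrl replicate 1. The gene overlaps NMRAL1 on the opposite strand, and the use of strand in counting is not given in the sources used here, so reads of the pair may not have been told apart. NMRAL1 had 878 to 1412 counts per library.

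The makeup of the heme oxygenase transcripts followed from these values. HMOX1 was 6.90% ± 0.103 (SD, n = 3) of the summed TPM of both genes in Ctrl and 6.53% ± 0.642 with DdBIC, with overlapping libraries. Its share was 30.9%, 34.7% and 30.8% in the Hemin libraries, a mean of 32.1% ± 2.25 (SD, n = 3). In DdBIC+Hemin it was 59.8%, 55.0% and 57.1%, a mean of 57.3% ± 2.39 (SD, n = 3). The 4 groups fell into 3 separate levels, with Ctrl and DdBIC together. Summed over both genes, the level was 144 ± 9.76 TPM in Ctrl, 137 ± 8.15 in DdBIC, 224 ± 8.71 in Hemin and 328 ± 27.7 in DdBIC+Hemin (SD, n = 3). An exact permutation test of 3 against 3 libraries cannot go below 0.10, so no p is given for these shares.

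**Figure D1:**
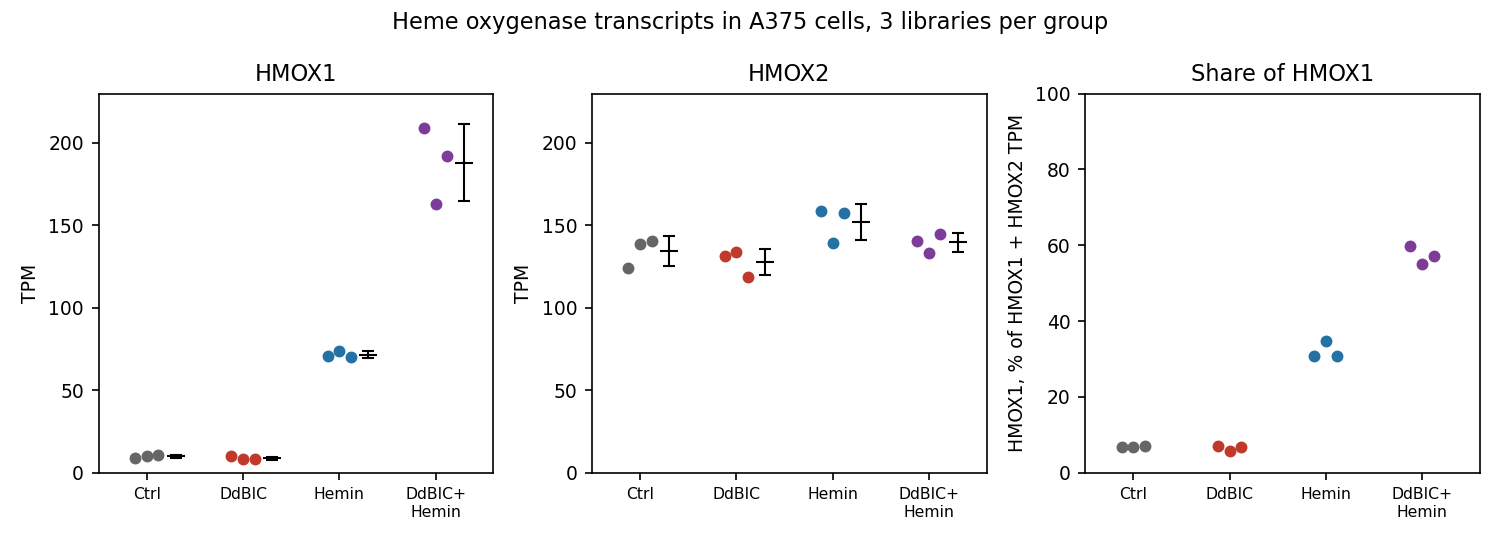
Points are the 3 libraries of each group. The vertical axes give TPM of HMOX1 and of HMOX2 and, in the right panel, HMOX1 as a percentage of the summed TPM of both genes, and the black bars give the mean and SD over libraries. HMOX1 libraries with both agents lie between 163 and 209 TPM, above all Hemin libraries at 70.2 to 74.1, whereas HMOX2 libraries lie between 119 and 159 TPM in all groups.

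BACH1 (ENSG00000156273, chromosome 21, 29194071 to 29630751, plus strand) was the only gene of the 10 that was higher with DdBIC alone past the threshold. It rose 2.12-fold with DdBIC, and it was lower again when hemin was given together with DdBIC. The Ctrl libraries had 31.7, 28.9 and 38.4 CPM, and the DdBIC libraries had 72.5, 64.7 and 72.9 CPM. With hemin alone the libraries had 37.5, 38.03 and 36.6 CPM, and with both agents 48.9, 43.7 and 35.3 CPM. No library of the other 3 groups reached the lowest DdBIC library. DdBIC against Ctrl gave a log2 fold change of 1.09 (SE 0.12, edgeR adjusted p = 5.59e-05), and DdBIC+Hemin against DdBIC gave -0.72 (SE 0.12, edgeR adjusted p = 0.00119). The interaction was -0.90 (SE 0.17, edgeR adjusted p = 0.00528). These 3 calls were kept in every alternative that set no minimum fold change, and with one of at least 1 on the log2 scale only the rise with DdBIC was left. Hemin against Ctrl gave 0.18 (95% interval -0.09 to 0.45, edgeR adjusted p = 0.541), and DdBIC+Hemin against Hemin gave 0.19 (95% interval -0.08 to 0.46, edgeR adjusted p = 0.443).

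DdBIC+Hemin against Ctrl gave a log2 fold change of 0.37 for BACH1 (95% interval 0.10 to 0.64, edgeR adjusted p = 0.0812). The ranges of these groups overlapped, through Ctrl replicate 3 and DdBIC+Hemin replicate 3. Without the former the adjusted p was 0.0292, without the latter 0.0160, and with DESeq2 it was 0.0239. The other 18 of the 21 alternatives that set no minimum fold change did not pass, and on the log2(TPM + 0.1) scale the difference was -0.0070 (limma adjusted p = 0.985), with 27.4 TPM in Ctrl and 27.2 in DdBIC+Hemin. The BACH1 locus spans 437 kb and overlaps GRIK1 on the opposite strand, which had only 7 to 21 counts per library. GRIK1 had a log2 fold change of 1.03 in DdBIC against Ctrl (edgeR adjusted p = 0.0171). The length implied by the ratio of count to FPKM was 2907 to 3127 bases for BACH1 in Ctrl and 3567 to 4061 bases in DdBIC, so the rise was smaller in TPM, at 0.74 on the log2(TPM + 1) scale. This length was 3312 to 3637 bases in Hemin and 3638 to 3979 in DdBIC+Hemin. It was thus longer in every treated library than in every Ctrl library, and counts and TPM also differ in the comparisons of those groups with Ctrl.

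Promoter sequence of BACH1 is shown because the BACH1 transcript moved with DdBIC, and those of PGRMC1 and BLVRB because these genes moved the opposite way with DdBIC. The windows reach from 250 bases before to 50 bases after a transcription start and were read from RefSeq on GRCh38.p14, where 9 of the 10 genes had an entry and HMOX1 had none. For BACH1 the window is chr21:29298672-29298971 on the plus strand, the first of its 3 listed starts, for PGRMC1 it is chrX:119236035-119236334 on the plus strand, and for BLVRB it is chr19:40465696-40465995 on the minus strand. Each is printed 5′ to 3′ in the direction of its gene. Capitals mark matches to 6 motifs searched on both strands.
BACH1: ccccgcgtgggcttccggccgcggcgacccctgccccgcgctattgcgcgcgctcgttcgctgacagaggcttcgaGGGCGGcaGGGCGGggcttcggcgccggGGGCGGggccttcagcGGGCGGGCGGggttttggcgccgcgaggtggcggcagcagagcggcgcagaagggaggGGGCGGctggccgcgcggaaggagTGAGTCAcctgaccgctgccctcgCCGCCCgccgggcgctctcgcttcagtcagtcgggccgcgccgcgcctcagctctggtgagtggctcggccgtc
PGRMC1: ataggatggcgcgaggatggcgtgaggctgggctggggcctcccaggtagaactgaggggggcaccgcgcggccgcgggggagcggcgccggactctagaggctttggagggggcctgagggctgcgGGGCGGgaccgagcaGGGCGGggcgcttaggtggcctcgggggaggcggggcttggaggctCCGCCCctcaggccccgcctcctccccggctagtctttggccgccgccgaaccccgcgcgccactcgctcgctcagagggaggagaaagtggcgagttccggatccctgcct
BLVRB: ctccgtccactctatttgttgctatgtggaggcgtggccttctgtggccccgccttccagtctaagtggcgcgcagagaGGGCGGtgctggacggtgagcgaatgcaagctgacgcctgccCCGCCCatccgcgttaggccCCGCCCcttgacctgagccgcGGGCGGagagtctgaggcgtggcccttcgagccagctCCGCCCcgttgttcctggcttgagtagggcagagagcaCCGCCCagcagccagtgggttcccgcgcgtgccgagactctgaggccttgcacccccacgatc

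The motifs were the antioxidant response element core TGACNNNGC, found in 13.3% of 35116 promoter windows of the same length, the AP-1 site TGANTCA in 7.71%, the motif TGACGT in 7.98%, the E-box CACGTG in 7.26%, the GC box GGGCGG in 45.0%, and the stress response element, an extended form that contains the AP-1 site, in 0.154%. The BACH1 window printed here held 1 AP-1 match, TGAGTCA, that begins 48 bases before the start, and 7 GC boxes, some of which overlap. The second BACH1 window held GC boxes only, 4 of them, and the third held no match. GC boxes were the only matches in the windows of PGRMC1, with 3, and BLVRB, with 6. Among the other members, the core TGACNNNGC was found only in PGRMC2, 94 bases before the start, an AP-1 match in the second window of FLVCR2, and an E-box in the first windows of HMOX2 and FLVCR2. No window of the 9 genes held TGACGT or the stress response element. A match describes the letters of these windows only.

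Both biliverdin reductases were lower with DdBIC and did not pass the threshold with hemin alone. BLVRB, the flavin reductase that also reduces the fetal form of biliverdin (ENSG00000090013, chromosome 19, 40447789 to 40465840, minus strand), had 6.68, 8.36 and 8.65 CPM in Ctrl and 5.36, 5.71 and 5.67 CPM with DdBIC. The groups did not overlap, and the log2 fold change was -0.50 (SE 0.11, edgeR adjusted p = 0.00444). It was kept in every alternative that set no minimum fold change. BLVRB had 7.49, 7.52 and 8.55 CPM with hemin and 6.72, 6.09 and 7.30 CPM with both. The libraries with both agents lay above the DdBIC libraries and below the Hemin libraries, and neither difference passed (log2 fold change 0.26, edgeR adjusted p = 0.0958, or 0.0451 with upper-quartile normalization, and -0.23, edgeR adjusted p = 0.283).

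BLVRA, the main biliverdin reductase of adult cells (ENSG00000106605, chromosome 7, 43758680 to 43807342, plus strand), had 23.1, 22.5 and 23.2 CPM in Ctrl and 19.5, 17.9 and 20.8 CPM with DdBIC. Every DdBIC library was below every Ctrl library, and the log2 fold change was -0.24 (SE 0.075, edgeR adjusted p = 0.0252). The call was lost without Ctrl replicate 1 (edgeR adjusted p = 0.0632), without Ctrl replicate 3 (0.0669), without DdBIC replicate 1 (0.0593) and without DdBIC replicate 2 (0.0931). With hemin the libraries had 21.8, 20.7 and 21.7 CPM, and with both agents 23.0, 24.2 and 20.0 CPM. DdBIC+Hemin against DdBIC gave 0.21 (95% interval 0.04 to 0.37, edgeR adjusted p = 0.0548), and the interaction was 0.31 (95% interval 0.08 to 0.54, edgeR adjusted p = 0.0698). Both passed with DESeq2, with adjusted p of 0.0407 and 0.0459, with upper-quartile normalization, with 0.0159 and 0.0335, without DdBIC replicate 3, with 0.0340 and 0.0452, and without DdBIC+Hemin replicate 3, with 0.0100 and 0.0163. The test of a difference between the DdBIC effects in the presence and absence of hemin gave 0.27 for BLVRB (95% interval -0.07 to 0.62, edgeR adjusted p = 0.290).

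PGRMC1, a heme-binding membrane protein (ENSG00000101856, chromosome X, 119236245 to 119244466, plus strand), was lower with DdBIC alone and stood at the Ctrl level with both agents. Its libraries had 66.5, 64.0 and 67.4 CPM in Ctrl, 52.8, 57.1 and 53.2 CPM with DdBIC, 63.1, 67.4 and 63.0 CPM with hemin, and 66.1, 65.1 and 68.4 CPM with both. All 3 DdBIC libraries were below the libraries of the other groups, which overlapped with each other. The log2 fold change was -0.28 in DdBIC against Ctrl (SE 0.044, edgeR adjusted p = 0.000473) and 0.29 for DdBIC+Hemin against DdBIC (SE 0.044, edgeR adjusted p = 0.000441), 2 comparisons that share the DdBIC libraries. DdBIC+Hemin against Ctrl gave 0.01 (95% interval -0.08 to 0.11, edgeR adjusted p = 0.905). The interaction was 0.32 (SE 0.062, edgeR adjusted p = 0.00445). These calls were kept in every alternative that set no minimum fold change, and their sizes were 1.21-fold, 1.22-fold and 1.25-fold.

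PGRMC2, its relative that carries heme to the nucleus (ENSG00000164040, chromosome 4, 128269237 to 128288829, minus strand), did not pass in any comparison. It had 18.6, 20.9 and 19.3 CPM in Ctrl, 16.2, 18.6 and 27.9 CPM with DdBIC, 19.3, 19.5 and 27.3 CPM with hemin, and 17.9, 19.7 and 17.5 CPM with both. DdBIC replicate 3 and Hemin replicate 3 stood above all other libraries. The same libraries had the longest and the shortest implied length for PGRMC2, 4430 and 3317 bases, against 3941 to 4220 in the others. DdBIC against Ctrl gave a log2 fold change of 0.09 (95% interval -0.34 to 0.53, edgeR adjusted p = 0.746).

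Of the transporters, FLVCR1, a heme exporter that also carries choline (ENSG00000162769, chromosome 1, 212858255 to 212899363, plus strand), was lowest when both agents were given. It had 32.4, 30.5 and 29.9 CPM in Ctrl, 31.1, 30.1 and 33.5 CPM with DdBIC, 32.4, 32.4 and 34.7 CPM with hemin, and 28.8, 27.5 and 27.5 CPM with both. The DdBIC+Hemin libraries lay below all others. The log2 fold change was -0.25 in DdBIC+Hemin against Hemin (SE 0.054, edgeR adjusted p = 0.0187) and -0.18 in DdBIC+Hemin against DdBIC (SE 0.054, edgeR adjusted p = 0.0282), and the interaction was -0.28 (SE 0.076, edgeR adjusted p = 0.0302). DdBIC+Hemin against Ctrl, at -0.15, did not pass (95% interval -0.27 to -0.03, edgeR adjusted p = 0.110).

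The FLVCR1 calls were close to the threshold. The call against Hemin was lost without Hemin replicate 3 (edgeR adjusted p = 0.0795), without DdBIC+Hemin replicate 2 (0.0611) and without DdBIC+Hemin replicate 3 (0.0610). The call against DdBIC was lost without DdBIC replicate 1 (0.0508), DdBIC replicate 3 (0.107), DdBIC+Hemin replicate 2 (0.0810) or DdBIC+Hemin replicate 3 (0.0741), and its adjusted p was 0.133 with upper-quartile normalization. Fitting only the groups compared gave adjusted p of 0.0507 against Hemin and 0.0945 against DdBIC. The interaction was lost without Ctrl replicate 2 (0.0670), Ctrl replicate 3 (0.0743), DdBIC replicate 3 (0.0646), Hemin replicate 3 (0.0729), DdBIC+Hemin replicate 2 (0.0633) or DdBIC+Hemin replicate 3 (0.0575). The sign was the same in all of them.

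SLC48A1, also called HRG1, which brings heme out of endosomes and lysosomes (ENSG00000211584, chromosome 12, 47753916 to 47782753, plus strand), had 12.5, 17.7 and 17.8 CPM in Ctrl and 13.9, 12.2 and 9.69 CPM with DdBIC. It had 16.5, 12.9 and 17.8 CPM with hemin and 16.9, 15.9 and 17.5 CPM with both. The libraries with both agents were above all DdBIC libraries, a 1.41-fold difference (log2 fold change 0.50, SE 0.17, edgeR adjusted p = 0.0438). That call was lost in 10 of 21 alternatives that set no minimum fold change, among them the fits without DdBIC replicate 3 (0.141), DdBIC+Hemin replicate 3 (0.108), DdBIC+Hemin replicate 1 (0.0968), DdBIC replicate 2 (0.0883), DdBIC+Hemin replicate 2 (0.0701), Hemin replicate 1 (0.0582) or Ctrl replicate 2 (0.0508). DdBIC against Ctrl gave -0.42 (95% interval -0.80 to -0.05, edgeR adjusted p = 0.0700), with Ctrl replicate 1 inside the DdBIC range. Without that library the adjusted p was 0.0171, without DdBIC replicate 1 it was 0.0420, with DESeq2 0.0365 and with upper-quartile normalization 0.0391. SLC48A1 overlaps RAPGEF3 and HDAC7 on the opposite strand, which had 428 to 629 and 3673 to 5791 counts per library.

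FLVCR2 (ENSG00000119686, chromosome 14, 75578617 to 75663164, plus strand), the relative of FLVCR1, was near the bottom of the measurable range, with 21 to 51 counts per library and 0.517 to 1.27 CPM. It did not pass in any comparison. Its intervals were wide, -1.09 to 0.27 on the log2 scale in DdBIC against Ctrl, so that a fall of up to 1.09 lay within the error at this depth. It overlaps TTLL5 on the same strand, which had 1285 to 1603 counts per library, and ERG28 on the opposite strand.

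**Figure D2:**
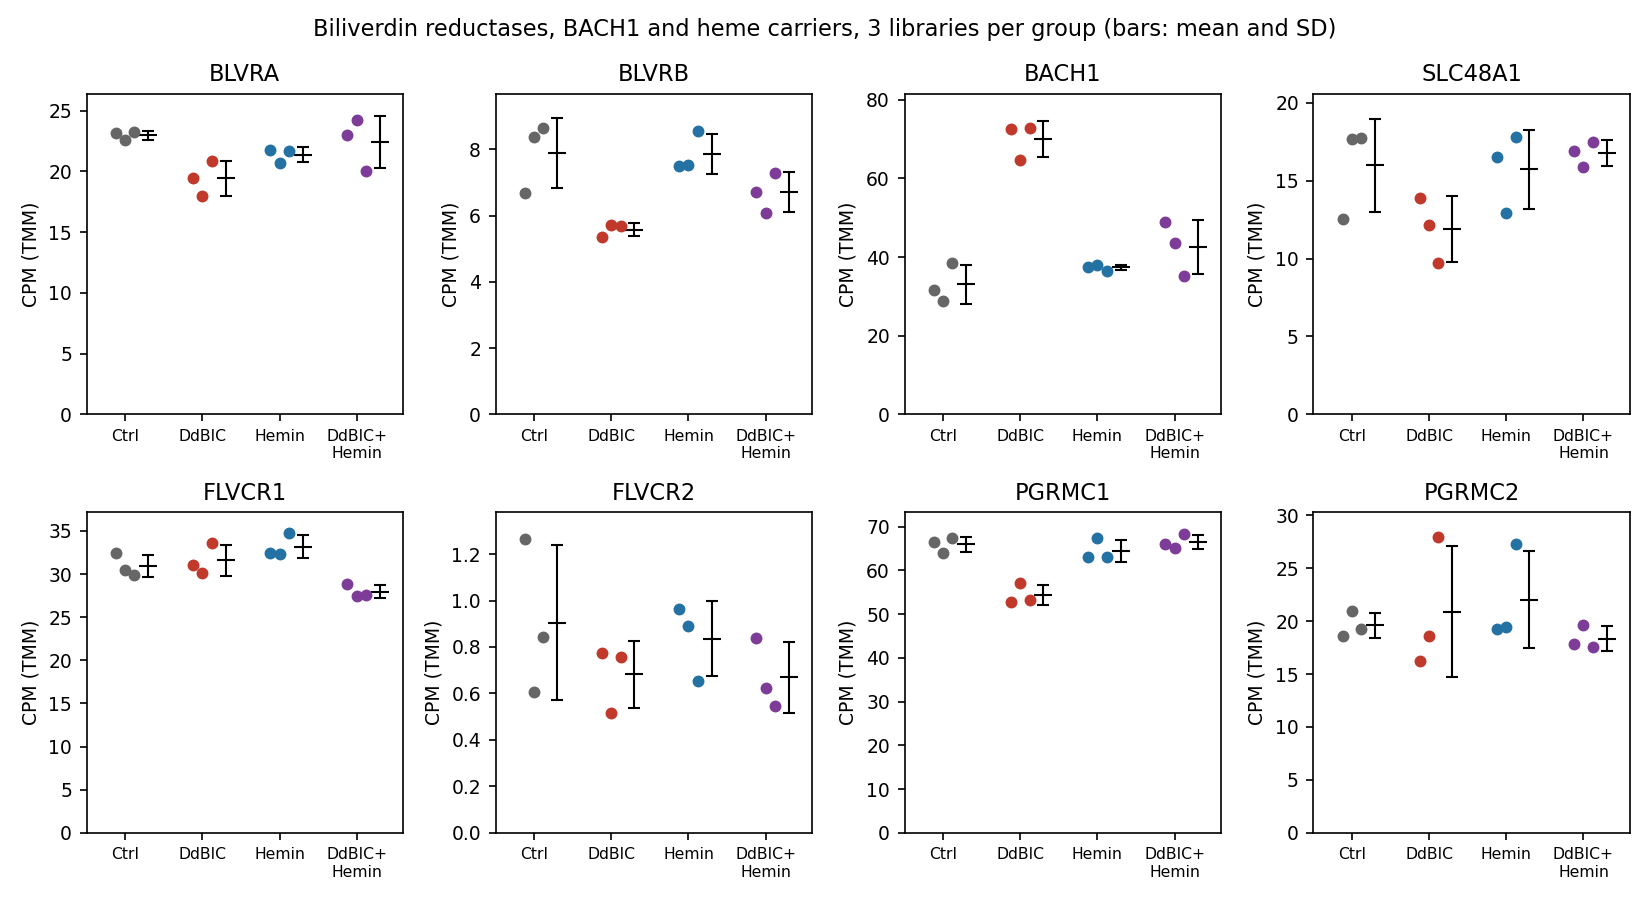
Each panel is 1 gene, with the 3 libraries of each group as points, CPM with TMM scaling on the vertical axis from 0, and bars for the mean and SD. BACH1 with DdBIC lies at 64.7 to 72.9 CPM, above every other library, and PGRMC1 with DdBIC lies at 52.8 to 57.1 CPM, below every other library.

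Counted over the 10 genes, DdBIC against Ctrl called 1 higher (BACH1) and 3 lower (BLVRA, BLVRB and PGRMC1). Over all tested genes 37.2% were called in that comparison, 20.0% higher and 17.2% lower, so the 4 of 10 were near the background. Hemin against Ctrl called 1 of 10, HMOX1, against a background of 4.06% (1.47% higher and 2.59% lower). DdBIC+Hemin against Ctrl also called HMOX1 alone, against 12.4% (5.66% higher and 6.74% lower). DdBIC+Hemin against DdBIC called 5 of 10, with HMOX1, SLC48A1 and PGRMC1 higher and BACH1 and FLVCR1 lower, against 31.9% (13.5% higher and 18.4% lower). This count was 3 without DdBIC+Hemin replicate 2, where 27.3% of all tested genes were called. It was 7 with DESeq2, which added HMOX2 and BLVRA as higher, against 33.0% of all tested genes. With upper-quartile normalization it was also 7, against 34.9%, with HMOX2, BLVRA and BLVRB added as higher and FLVCR1 lost. DdBIC+Hemin against Hemin called HMOX1 as higher and FLVCR1 as lower, against 6.80% (3.71% higher and 3.09% lower). The interaction called HMOX1 and PGRMC1 as higher and BACH1 and FLVCR1 as lower, against 16.6% (6.40% higher and 10.2% lower). Among all called genes the share of higher ones depended on the scaling: with upper-quartile normalization in place of TMM it went from 53.8% to 40.0% for DdBIC against Ctrl, from 42.4% to 59.2% in DdBIC+Hemin against DdBIC and from 38.5% to 55.4% in the interaction, and with library totals only it went from 45.6% to 34.4% in DdBIC+Hemin against Ctrl and from 54.6% to 42.3% in DdBIC+Hemin against Hemin. No called member changed its direction under either. The median log2 fold change of the 10 was -0.20 for DdBIC against Ctrl and 0.19 for DdBIC+Hemin against DdBIC, where the medians over all tested genes were -0.0082 and -0.010.

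**Figure D3:**
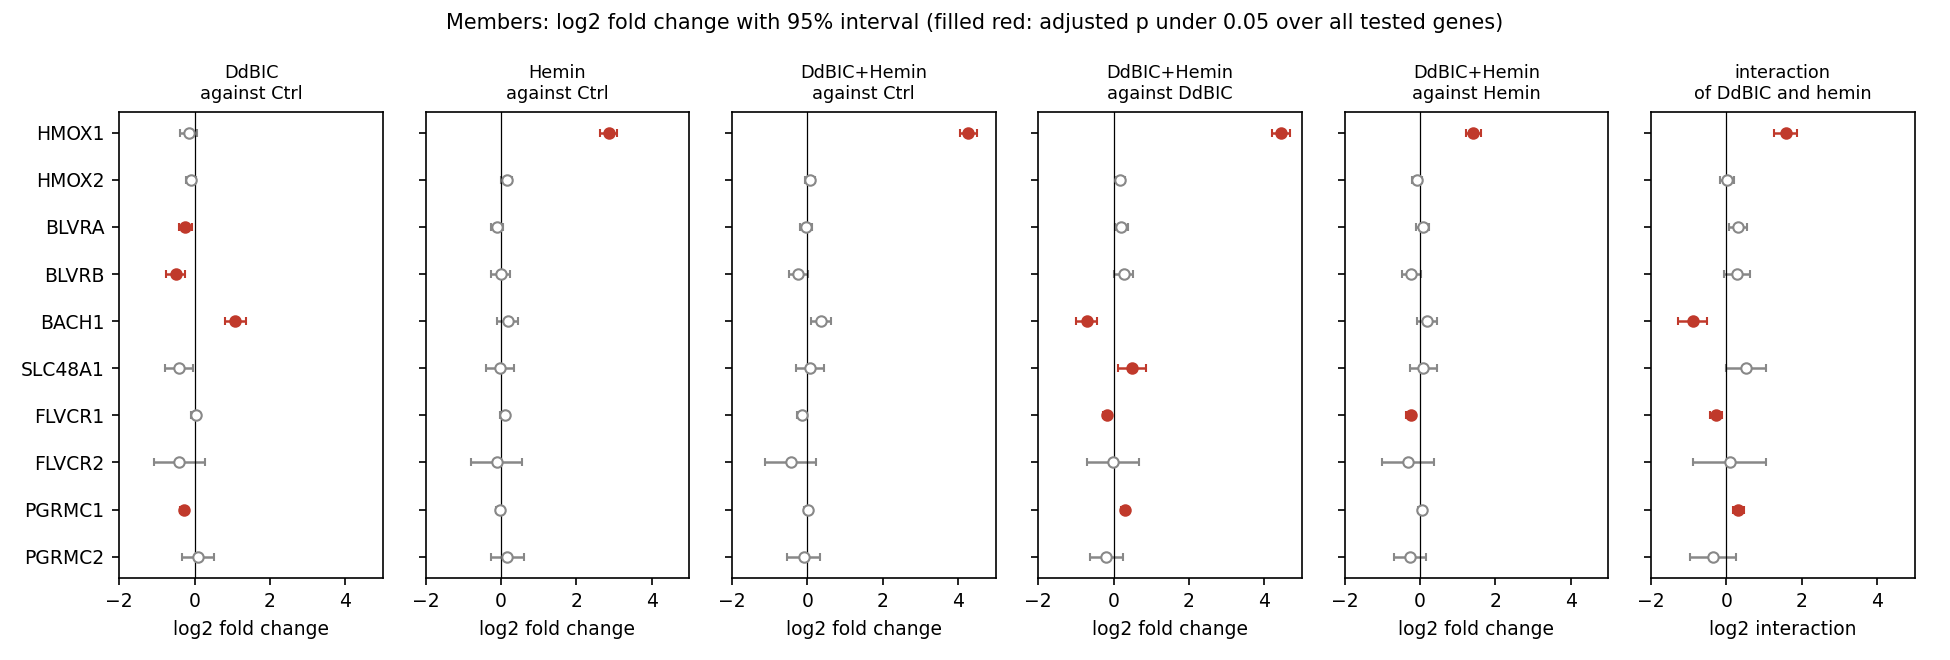
Rows are the 10 genes and panels the 6 comparisons, with the log2 fold change on the horizontal axis (the difference of the DdBIC effects in the last panel), bars for the 95% interval and red for an edgeR adjusted p under 0.05. HMOX1 lies to the right of 0 in every panel except DdBIC against Ctrl, and BACH1 lies at 1.09 with DdBIC and at -0.72 when hemin was added to DdBIC.

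The other genes of the pathway were described by lists, chosen with earlier results of these data known. Of 9 heme synthesis genes, 8 were tested. With DdBIC 7 of these were lower and 1 was higher, the latter being ALAS1, which encodes the rate-limiting first enzyme outside the red cell lineage. Over all tested genes 17.2% were called lower and 20.0% higher in that comparison. The count was 6 to 8 when 1 library was left out, where 31.6% to 37.9% of all tested genes were called. PPOX (edgeR adjusted p = 0.0413) lost its call in 9 of 21 alternatives that set no minimum fold change, 8 of them with 1 library left out. ALAD (edgeR adjusted p = 0.0209) lost its call in 5 of 21. The median of the list was -0.27 on the log2 scale. ALAS1 had 123, 125 and 127 CPM in Ctrl, 151, 152 and 148 CPM in DdBIC, 53.9, 52.6 and 52.9 CPM in Hemin, and 77.7, 71.5 and 76.6 CPM in DdBIC+Hemin. Its 4 groups did not overlap. The log2 fold change was 0.26 with DdBIC (edgeR adjusted p = 0.000128), -1.24 with hemin (edgeR adjusted p = 1.97e-08) and 0.50 in DdBIC+Hemin against Hemin (edgeR adjusted p = 1.40e-05). FECH, the ferrochelatase that inserts iron, fell by 0.39 with DdBIC (edgeR adjusted p = 0.00906) and was 0.58 higher in DdBIC+Hemin than in DdBIC (edgeR adjusted p = 0.000967), both on the log2 scale. On the log2(TPM + 1) scale the former did not pass (limma adjusted p = 0.107). Hemin against Ctrl called only ALAS1 of the 8, where 2.59% of all tested genes were called lower and 1.47% higher. Without DdBIC+Hemin replicate 3 it called 2 of the 8, where 4.37% of all tested genes were called. DdBIC+Hemin against DdBIC called 4 of 8 as higher and ALAS1 as lower, where 13.5% of all tested genes were called higher and 18.4% lower. Of the 4, ALAD (log2 fold change 0.16, edgeR adjusted p = 0.0477) lost its call in 14 of 21 such alternatives, 9 of them with 1 library left out.

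The list of BACH1 and NRF2 partners and targets without HMOX1 had 17 of 18 genes tested, and its members moved in different directions. With hemin 3 passed, with both agents against Ctrl 6 and with both against Hemin 3, all higher, and with both against DdBIC 10 were higher and 1 lower. The shares of all tested genes called higher were 1.47%, 5.66%, 3.71% and 13.5% in the same order of comparisons. Of the 3 against Hemin, 1 was left without DdBIC+Hemin replicate 1, where 4.30% of all tested genes were called. With DdBIC alone 3 were higher and 2 lower, or 5 of 17, where 37.2% of all tested genes were called. GCLM, a subunit of the enzyme that starts glutathione synthesis, had 59.4, 50.6 and 49.8 CPM in Ctrl, 54.8, 57.0 and 58.0 CPM in DdBIC, 93.7, 76.9 and 74.2 CPM in Hemin, and 103, 104 and 103 CPM in DdBIC+Hemin. It was higher in both groups with hemin, by 0.62 against Ctrl with hemin alone (edgeR adjusted p = 0.00253) and by 0.87 against DdBIC with both (edgeR adjusted p = 2.33e-05), on the log2 scale. FTH1, the heavy chain of the iron store ferritin, rose by 0.47 with hemin (edgeR adjusted p = 0.000452) and by 0.72 with both (edgeR adjusted p = 5.66e-06) against Ctrl, and it also rose with DdBIC alone.

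MAFK, a small MAF partner of BACH1, had 47.4, 55.9 and 48.4 CPM in Ctrl and 120, 104 and 116 with DdBIC. It had 50.6, 43.4 and 43.1 CPM with hemin and 71.7, 53.6 and 54.3 with both. As for BACH1, the DdBIC libraries lay above all others. The log2 fold change was 1.16 with DdBIC (edgeR adjusted p = 3.15e-05) and -0.92 in DdBIC+Hemin against DdBIC (edgeR adjusted p = 0.000215), and the interaction was -0.77 (edgeR adjusted p = 0.0104). MAFG, another small MAF gene, was 1.95 higher in DdBIC+Hemin than in DdBIC on the log2 scale (edgeR adjusted p = 0.0310). Its Ctrl libraries had 113, 30.5 and 116 CPM and its Hemin libraries 25.6, 105 and 104, so it split within groups, and the call was lost without any 1 of the 6 libraries compared (adjusted p 0.0580 to 0.0872). SQSTM1 was 1.44 higher with DdBIC (edgeR adjusted p = 0.0107), from 269, 316 and 281 CPM to 969, 499 and 880.

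Of 13 further heme carriers and binders, 12 were tested. With DdBIC 4 passed, all lower, where 37.2% of all tested genes were called and 17.2% were lower. Without DdBIC replicate 1 the count was 2, where 31.8% of all tested genes were called. LRP1, the receptor that takes up hemopexin with its heme, fell by 0.54 on the log2 scale with DdBIC (edgeR adjusted p = 1.96e-06), and its interaction was 0.39 (edgeR adjusted p = 0.000840). ABCB6, a porphyrin transporter, fell by 0.68 with DdBIC (edgeR adjusted p = 0.00543, limma adjusted p = 0.0680 on the log2(TPM + 1) scale). In the list of electron supply and bile pigment disposal, 3 of 5 genes were tested and 2 were lower with DdBIC, the export pumps ABCC1 and ABCC2, with ABCC2 at -0.42 (edgeR adjusted p = 2.30e-05). Of 11 iron handling genes, all tested, 2 were higher and 3 lower with DdBIC, a total of 5 near the background of 37.2%. The total was 2 without Ctrl replicate 1 (32.4% of all tested genes) and 3 without DdBIC replicate 1 (31.8%). The 2 higher genes, SLC25A28 and PCBP2, lost their calls with upper-quartile normalization (edgeR adjusted p = 0.0612 and 0.859).

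**Figure D4:**
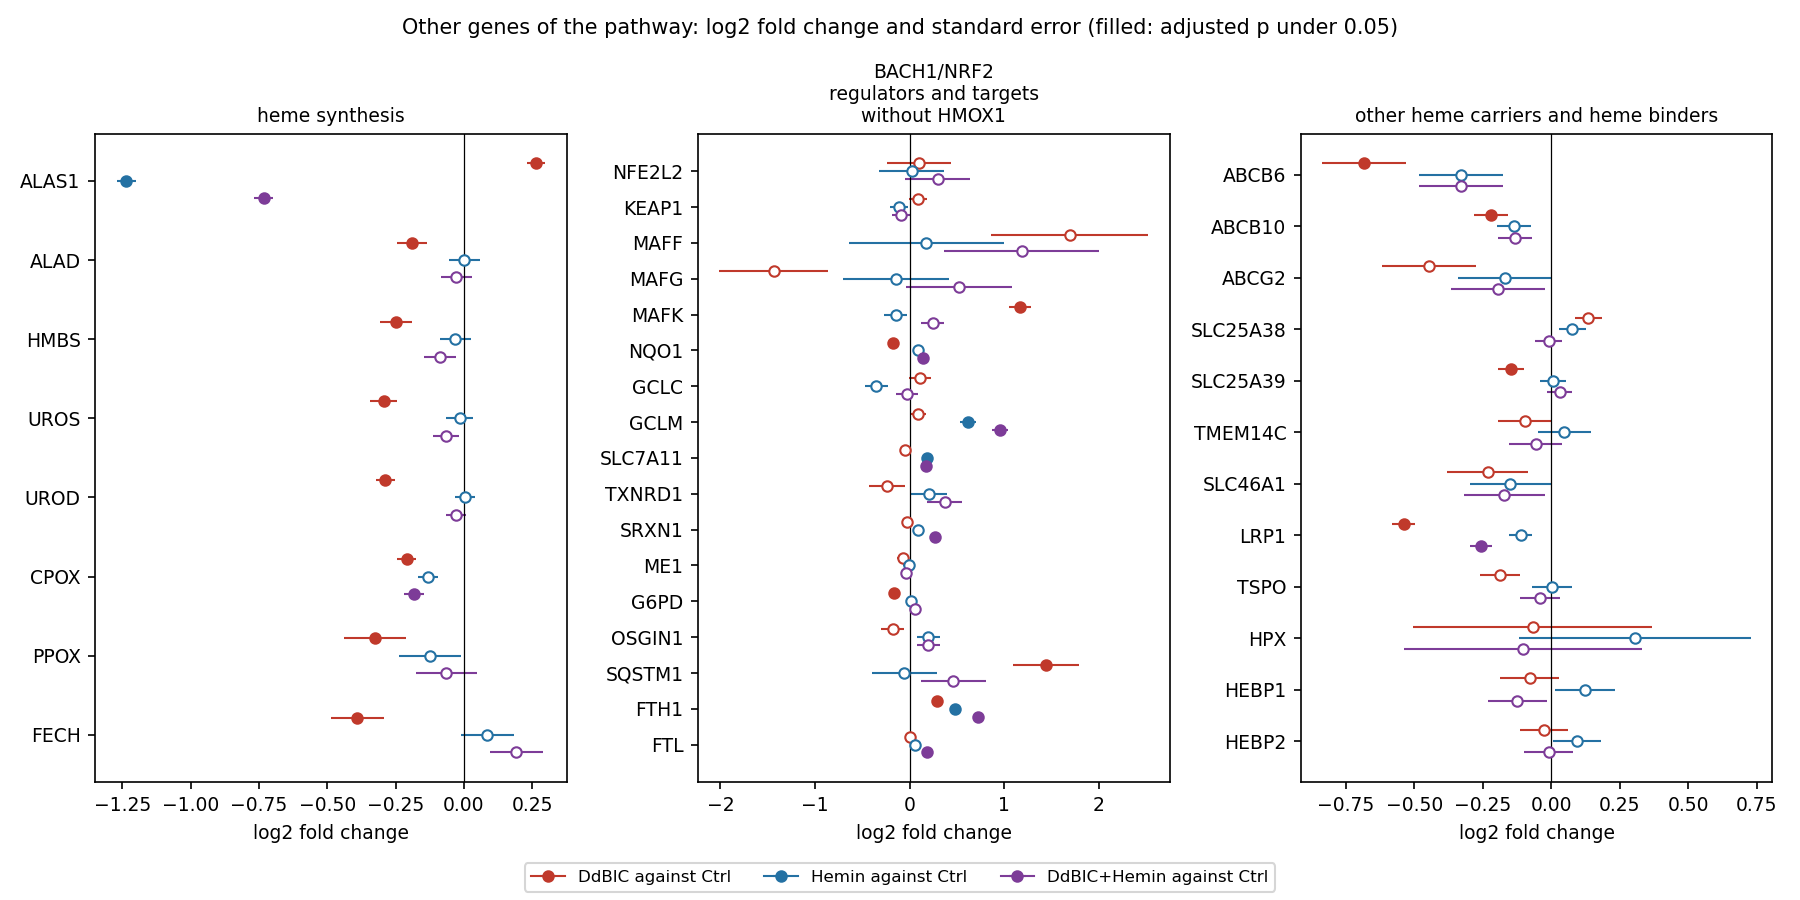
Points give the log2 fold change against Ctrl of each tested gene in 3 of the lists, with bars for the standard error, colours for the 3 comparisons and filled points for an edgeR adjusted p under 0.05. ALAS1 lies at 0.26 with DdBIC and at -1.24 with hemin, and MAFK lies at 1.16 with DdBIC.

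Likeness to HMOX1 and BACH1 was measured as the Pearson correlation of log2 CPM over the 12 libraries with each of 10677 other genes whose mean was 5 CPM or more. It describes a pattern over 4 groups whose libraries cluster, so no p is given. Nearest to HMOX1 were EHD4 (r = 0.966), ZNF469 (r = 0.962), TTLL12 (r = 0.960), GCLM (r = 0.957) and SARS (r = 0.956). GCLM had group means of 53.3, 56.6, 81.6 and 103 CPM in Ctrl, DdBIC, Hemin and DdBIC+Hemin. In the same order EHD4 had 335, 320, 372 and 382 CPM and ZNF469 had 18.1, 19.6, 32.2 and 36.1. TTLL12 had 135, 129, 147 and 159 CPM, and SARS had 228, 230, 262 and 264. All of these rises were smaller than that of HMOX1, so a high r here does not mean a change of like size. Nearest to BACH1 were SNX5 (r = 0.983), YTHDF2 (r = 0.9753), C16orf72 (r = 0.972), TXNL4B (r = 0.972) and RRN3 (r = 0.971). TXNL4B had group means of 28.0, 44.1, 31.0 and 33.2 CPM in the same order, a smaller rise with DdBIC than that of BACH1. SNX5, the nearest, had 179, 217, 184 and 193 CPM.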

How the data were processed

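RNA-seq was performed on total RNA of A375 cells extracted with Trizol, in 12 libraries. The authors deposited 1 table of 20263 genes with raw counts per gene, which they did not normalize, and with TPM values scaled by length and FPKM values scaled by length and depth. Trim Galore, Subread, featureCounts and the build hg38 are named in the submitters' processing notes, without versions; strand use is not given in the sources used here. Of the genes, 20224 were found in GENCODE 29.

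Groups were taken from the sample labels. Counts were tested in R 4.3.3 with edgeR 4.0.16 (filterByExpr, TMM, robust quasi-likelihood fit of 1 mean per group to all 12 libraries, 8 residual degrees of freedom), with Benjamini-Hochberg adjustment over 14287 genes and a threshold of 0.05. The 6 comparisons were 5 pairs of groups and the interaction. Depth was 37951275 to 44358912 counts per library. The 95% intervals come from the edgeR fit and include the spread between libraries, and the floor of 3 counts covers counting error only. TPM was used for levels between genes and FPKM for the implied length (count over FPKM, scaled by depth). Alternatives were DESeq2 1.42.0, upper-quartile scaling, library totals, a minimum of 10 counts in all libraries, no filter, fits of the compared groups, a replicate block, a minimum absolute log2 fold change of 1, limma 3.58.1 on log2(TPM + 1) and log2(TPM + 0.1), and leaving out each library. The edgeR steps were tested on simulated counts in which a small share of genes was changed, in DdBIC only. DdBIC against Ctrl and an unchanged Hemin against Ctrl were examined there. The interaction, the other comparisons, the alternatives and a change in as large a share of genes as in these data were not tested this way. The members, the lists (heme synthesis, other heme carriers and binders, BACH1 and NRF2 partners and targets, electron supply and bile pigment disposal, iron handling) and the tests were chosen with earlier results of these data known. List genes were named by rule, as the 2 largest rises and 2 largest falls past the threshold in each list and comparison, of which the text gives a part, and the genes most like HMOX1 and BACH1 as the 5 with the highest correlation.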

Additional observations from a re-analysis of the deposited data

Results flagged for a closer look

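The effect of DdBIC on 4 of the 10 genes differed between cells with and without hemin by edgeR's interaction test, against 16.6% of all tested genes. For HMOX1 the difference was 1.57 on the log2 scale, with the 3 libraries given both agents above every other library. For BACH1 it was -0.90, with the 3 DdBIC libraries above every other library. For PGRMC1 it was 0.32, with the 3 DdBIC libraries below every other library, and for FLVCR1 it was -0.28, with the 3 libraries given both agents below every other library. The FLVCR1 difference was lost in 7 of the 20 alternatives that set no minimum fold change, and the other 3 in 0 of 20. Single outlying libraries were not tested for in these groups of 3.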

How the results depend on the processing

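Of 1310 values of the 10 genes under alternative settings, 1248 did not cross the threshold, 42 lost their call, 20 gained one and 0 called values reversed. For FLVCR2 in Hemin against Ctrl and in DdBIC+Hemin against Hemin, 20 of the 21 alternatives without a minimum fold change kept its side. The remaining one in each gave no side and is counted within the 1248. Among the 1248, 43 changed sign, with neither value past the threshold. A minimum absolute log2 fold change of 1 beside the adjusted p left 1 gene of 4 in DdBIC against Ctrl, where 3.51% of all tested genes were called. It left 1 of 5 in DdBIC+Hemin against DdBIC (2.26% of all tested genes), 1 of 2 in DdBIC+Hemin against Hemin (0.322%) and 1 of 4 in the interaction (1.95%). The other genes lost their call since their changes were smaller. DESeq2 called 2 genes in place of 1 in DdBIC+Hemin against Ctrl, where the share of all tested genes went from 12.4% to 14.2%. A fit of only the groups compared called 1 in place of 2 in DdBIC+Hemin against Hemin, where that share went from 6.80% to 3.95%. The cause was not tested. Leaving out 1 library at a time gave 3 to 4 genes in DdBIC against Ctrl, where 31.6% to 37.9% of all tested genes were called. It gave 1 in Hemin against Ctrl (1.92% to 4.37% of all tested genes) and 1 to 2 in DdBIC+Hemin against Ctrl (8.51% to 12.3%). It gave 3 to 6 in DdBIC+Hemin against DdBIC (26.5% to 31.1%), 1 to 2 in DdBIC+Hemin against Hemin (4.30% to 6.53%) and 3 to 4 in the interaction (13.6% to 16.3%). Depth limited FLVCR2, with 21 to 51 counts per library, more than the other 9 genes.

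Libraries of different groups with the same replicate number did not deviate together (18 pairs, r = -0.046 to 0.081, 0 over 0.1), so the number was not read as a pairing. With the replicate number as a block, 4 genes of the 10 were called in DdBIC against Ctrl, near the 35.6% of all tested genes. The block called 1 in Hemin against Ctrl (2.86% of all tested genes) and 1 in DdBIC+Hemin against Ctrl (10.5%). In DdBIC+Hemin against DdBIC it called 4 (29.8%), with SLC48A1 at an edgeR adjusted p of 0.0806. It called 2 in DdBIC+Hemin against Hemin (5.43%) and 4 in the interaction (14.5%).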
